A study of Mus musculus with 10 samples.

Results

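The integrated stress response was followed through 10 genes in doxorubicin-treated mouse hearts: Atf4, Atf5, Ddit3, Trib3, Chac1, Asns, Fgf21, Gdf15, Xbp1 and Ppp1r15a. They were found by gene symbol among the 78298 genes of the count table, through the GENCODE annotation of GRCm39. Ddit3 matched 2 identifiers, and the second, an annotation of 105 exonic bases, had 0 counts in every library and was set aside. Of the 10 genes, 9 had enough counts to be tested among 16700 genes, and Fgf21 did not. All hearts came from female mice on a C57BL/6J background, taken 72 h after 1 intraperitoneal dose of doxorubicin at 30 mg/kg, an anthracycline whose use is limited by injury to the heart. One group of 5 libraries was labelled wild type and the other 5 carried the label of a germline p38δ knockout, the product of Mapk13 being a kinase activated by stress. Every heart had received the drug, so the response to doxorubicin itself was not measured. The age of the mice is not given in the sources used here. The comparison asks whether transcripts of this stress pathway differed with p38δ genotype after the drug.

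The integrated stress response starts when kinases that sense amino acid shortage, misfolded protein in the endoplasmic reticulum, double-stranded RNA or mitochondrial and haem stress phosphorylate the translation factor eIF2α. General protein synthesis slows, while the messages of Atf4, Atf5 and Ddit3 are translated better because of short upstream reading frames, so the level of these transcripts need not follow their protein. ATF4 binds C/EBP-ATF response elements in genes for amino acid supply and stress feedback, and the secreted hormones GDF15 and FGF21 are among its known outputs in stressed heart muscle. Xbp1 belongs to a parallel branch of the unfolded protein response, in which its transcript is spliced by the sensor IRE1, a step that counts per gene do not resolve.

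Library totals ranged from 21403189 to 40627138 counts. The targeted gene did not settle the labels, so directions are given between libraries as labelled. Mapk13 had 292, 5, 2, 1 and 4 counts in the wild-type-labelled libraries 1 to 5. The knockout-labelled libraries 1 to 5 had 12, 10, 10, 15 and 9 counts. With all 10 libraries its log2 fold change was -1.76 and was not called (edgeR adjusted p = 0.78), a direction set by wild-type-labelled library 1. Without wild-type-labelled library 1, Mapk13 was called higher in the knockout-labelled group (log2 fold change 2.13, edgeR adjusted p = 0.0443), and which part of the gene was deleted is not given in the sources used here. Wild-type-labelled library 1 stood apart, with a correlation to the mean of its group of 0.961 across genes, against 0.986 to 0.995 for the other libraries. Its summed airway and alveolar markers were 915.9 CPM (counts as a rate per library total, with the total adjusted for composition), against at most 80.4 CPM in the others, and its fast skeletal muscle markers 551 CPM against at most 11.4 CPM. Its atrial cardiomyocyte markers summed to 1519 CPM, against 382 CPM in wild-type-labelled library 2 and 93.0 to 181 CPM elsewhere. Its sum of ventricular cardiomyocyte markers was lowest, at 18460 CPM, and that of knockout-labelled library 4 was highest, at 55790 CPM. Fibroblast marker sums did not overlap, at 724 to 1386 CPM in wild-type-labelled and 637 to 685 CPM in knockout-labelled hearts. Without wild-type-labelled library 1, however, 2 of the 5 fibroblast markers had a log2 fold change below 0. The 7 mesothelial markers (0 called) had a median of -1.19, and -0.70 without that library. Endothelial sums overlapped, at 521 to 622 and 524 to 617 CPM. Heart muscle markers were abundant in all 10 libraries, as the tissue label says. Titles start differently in the 2 groups, and a batch that went with the titles cannot be told apart from genotype.

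Sequence elements near the starts of these genes are shown because ATF4 acts through them. Promoter sequences of 250 bases before and 50 after each start came from RefSeq (GRCm38.p6) for all 10 genes, in 12 windows since Atf5 and Gdf15 had 2 starts each, and positions are from exact matches to GRCm39. The core of the C/EBP-ATF response element, TGATGNAA on either strand, was present in 4 of the 10 genes, and in 4.51% of 27025 genes in the table. The 30 bases around each match are given 5′ to 3′ on the gene's strand, with the match in capitals.
Fgf21: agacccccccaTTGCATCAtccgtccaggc
Chac1: cttccctgccgTTGCATCActcctgccagg
Asns: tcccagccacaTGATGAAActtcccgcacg
Trib3: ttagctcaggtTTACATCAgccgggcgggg
The Fgf21 match (chr7:45265035-45265064, minus strand) began at -139 from the start and lay outside annotated exons. Those of Chac1 (chr2:119181519-119181548, plus strand) and Asns (chr6:7693214-7693243, minus strand) began at -193 and -23 from the RefSeq start, where GENCODE annotates exons of the same genes. The Trib3 match (chr2:152185948-152185977, minus strand) began 15 bases after the start, in an annotated exon. The cyclic AMP response element TGACGTCA, which is its own reverse complement, was found in Ppp1r15a alone of the 10 genes (chr7:45175686-45175715, minus strand), beginning at -12, and in 2.03% of genes in the table.
Ppp1r15a: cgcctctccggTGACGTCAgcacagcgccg
The endoplasmic reticulum stress element was found in none of the 12 windows on either strand, and in 0.137% of genes in the table. A match describes these letters and is not evidence that a factor bound there.

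The 10 genes covered a wide range of abundance. Expressed as CPM per kilobase of annotated exon, averaged over the 10 hearts, Atf4 was the most abundant at 21.7, followed by Ppp1r15a at 11.99, Xbp1 at 8.78 and Atf5 at 6.80. Ddit3 stood at 1.66, Chac1 at 1.082 and Trib3 at 0.65. Gdf15, at 0.26, and Asns, at 0.24, were low, and Fgf21, at 0.04, was near the limit of detection. Most neighbours in this order kept their places in all 10 libraries. The exceptions were Ppp1r15a above Xbp1 and Gdf15 above Asns, each in 8 of 10 libraries, and Ddit3 above Chac1 in 9. The order depends on the length used, which joins all annotated exons of a gene: 11709 bases for Asns, 6931 for Xbp1 and 2263 for Gdf15. In CPM alone, Asns averaged 3.71 in wild-type-labelled and 1.87 in knockout-labelled hearts, above Gdf15 at 0.69 and 0.49. Xbp1, at 64.1 and 57.6 CPM, then lay above Atf4, at 51.3 and 51.6 CPM.

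None of the 9 tested genes differed between the labelled groups beyond the spread between hearts. edgeR's quasi-likelihood test called 0 of 9 at an adjusted p of 0.05, and 0.353% of all 16700 tested genes were called. At an unadjusted p under 0.05 it found 0 of 9, against 6.86% of all tested genes. DESeq2 called 0 of 9 (0.707% of all genes), with 0 of 9 at an unadjusted p under 0.05 (7.22% of all genes). With limma voom the figures were 0 of 9 called (0.335% of all genes) and 0 of 9 at an unadjusted p under 0.05 (5.98% of all genes). The 2 groups overlapped in each of the 9 genes, while they did not overlap in 1.78% of all tested genes. The precision differed widely between genes, from Atf4, where the approximate 95% interval of the ratio of knockout-labelled to wild-type-labelled hearts ran from 0.904 to 1.12, to Asns, where it ran from 0.19 to 1.31.

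**Figure D1:**
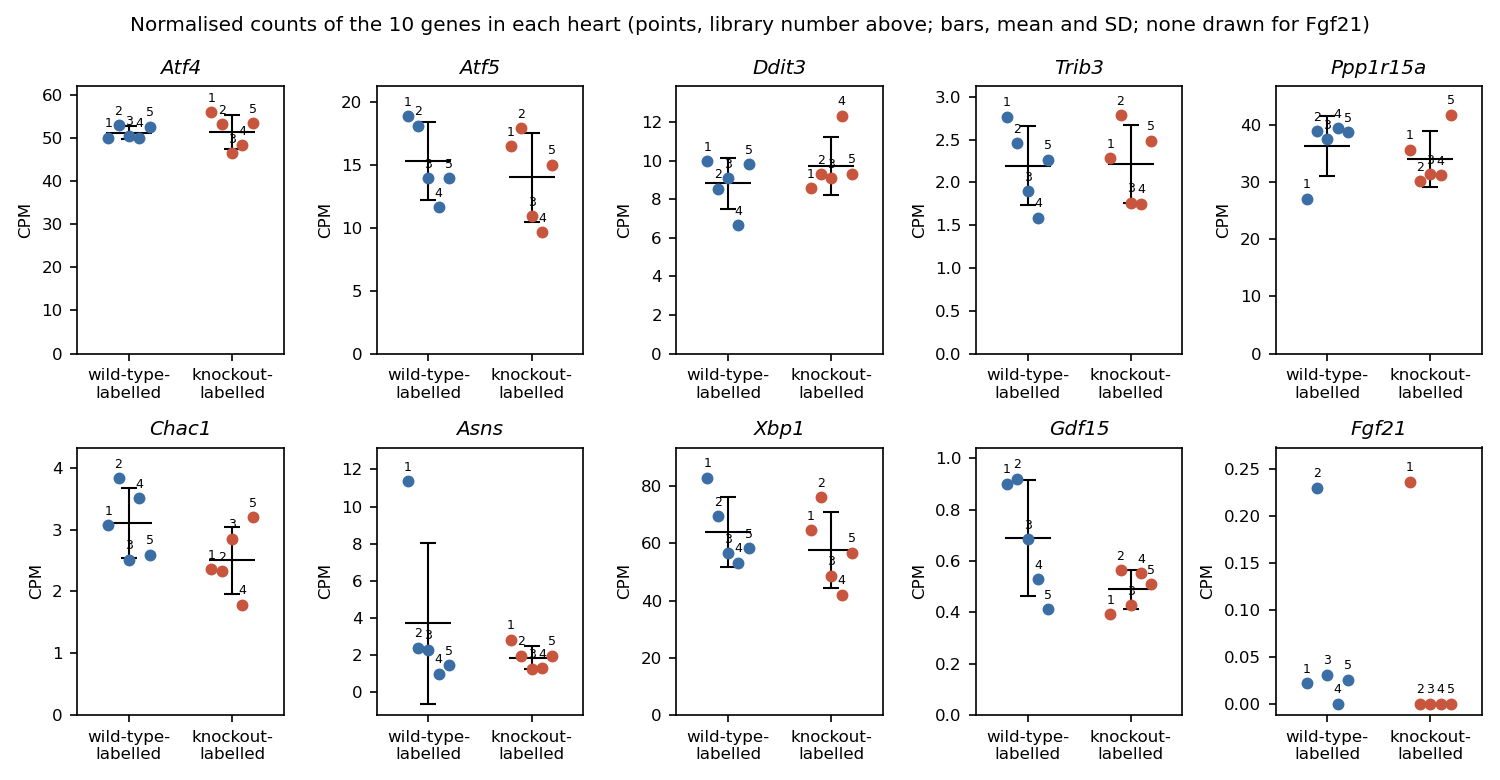
Normalised counts (CPM, vertical axes from 0 or just below) of each gene in the 5 wild-type-labelled (blue) and 5 knockout-labelled (red) hearts. Points are single libraries with the library number above, and bars give the mean and SD, except for Fgf21. Groups overlap in every panel, and wild-type-labelled library 1 lies far above the other hearts for Asns.

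Atf4 (chromosome 15, 80139372 to 80141745, plus strand), the central transcription factor of the response, was the steadiest of the 10 genes. Its levels in libraries 1 to 5 were 50.1, 53.1, 50.6, 50.1 and 52.7 CPM in the wild-type-labelled and 56.0, 53.3, 46.5, 48.3 and 53.5 CPM in the knockout-labelled hearts. The wild-type-labelled hearts lay inside the range of the others, and the coefficient of variation over all 10 was 5.48%. Means were 51.3 ± 1.44 and 51.6 ± 3.97 CPM (SD, n = 5 each), with a log2 fold change of 0.01 ± 0.07 SE (edgeR adjusted p = 0.988). With libraries scaled by their totals alone the log2 fold change was -0.09 and also not called, a scaling under which the median of all genes shifted by -0.10.

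Atf5 (chromosome 7, 44461680 to 44466082, minus strand), a related factor linked to mitochondrial stress, varied more between hearts than between groups. It measured 18.8, 18.1, 13.9, 11.6 and 13.9 CPM in the wild-type-labelled hearts. In the knockout-labelled hearts it measured 16.4, 17.9, 10.9, 9.63 and 15.004 CPM. Each group held hearts above 17 and below 12 CPM, and the log2 fold change was -0.13 ± 0.19 SE (edgeR adjusted p = 0.904).

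Ddit3 (chromosome 10, 127124268 to 127132163, plus strand) encodes CHOP, which promotes cell death under prolonged stress. It measured 9.97, 8.54, 9.11, 6.64 and 9.83 CPM in the wild-type-labelled hearts, and 8.58, 9.30, 9.09, 12.3 and 9.31 CPM in the knockout-labelled hearts. The high heart was knockout-labelled library 4 and the low one wild-type-labelled library 4, with the remaining 8 between 8.54 and 9.97 CPM. The log2 fold change was 0.14 ± 0.13 SE (edgeR adjusted p = 0.849). Ddit3 shares 3005 bases, on the opposite strand, with transcripts of Mars1, a methionyl-tRNA synthetase gene. The strand setting of the counting is not given in the sources used here, so reads of the pair could not be told apart.

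Trib3 (chromosome 2, 152179337 to 152191958, minus strand) encodes a pseudokinase induced by ATF4 and CHOP that feeds back on them. Its levels were 2.77, 2.45, 1.90, 1.59 and 2.26 CPM in the wild-type-labelled and 2.28, 2.78, 1.76, 1.75 and 2.49 CPM in the knockout-labelled hearts. Both groups spanned nearly the same range, and the means were 2.19 ± 0.46 and 2.21 ± 0.45 CPM. The log2 fold change was 0.01 ± 0.21 SE (edgeR adjusted p = 0.995).

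Ppp1r15a (chromosome 7, 45172340 to 45175692, minus strand) encodes GADD34, the phosphatase subunit that reverses eIF2α phosphorylation. It measured 27.1, 39.0, 37.5, 39.5 and 38.7 CPM in the wild-type-labelled hearts. The knockout-labelled hearts had 35.7, 30.2, 31.4, 31.2 and 41.9 CPM. Wild-type-labelled library 1 was the lowest of the 10, while the other 4 of its group lay between 37.5 and 39.5 CPM, above 4 of the 5 knockout-labelled hearts. The log2 fold change was -0.09 ± 0.12 SE (edgeR adjusted p = 0.89), and -0.18 without that library (adjusted p = 0.853).

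Chac1 (chromosome 2, 119180757 to 119184866, plus strand) encodes an enzyme that degrades glutathione and carries the element shown above. It measured 3.08, 3.83, 2.52, 3.51 and 2.60 CPM in the wild-type-labelled hearts, and 2.36, 2.32, 2.86, 1.78 and 3.204 CPM in the knockout-labelled hearts. In 3 knockout-labelled hearts the level lay below every wild-type-labelled heart, and in the other 2 within their range. The ratio of the groups was 0.807, with an approximate 95% interval of 0.593 to 1.098 (log2 fold change -0.31 with SE 0.19, edgeR adjusted p = 0.755).

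Asns (chromosome 6, 7671667 to 7728461, minus strand), the asparagine synthetase gene and a standard readout of ATF4 activity, was set by 1 library. It measured 11.4, 2.40, 2.30, 1.01 and 1.47 CPM in the wild-type-labelled and 2.83, 1.97, 1.29, 1.298 and 1.98 CPM in the knockout-labelled hearts. All 9 hearts other than wild-type-labelled library 1 fell between 1.01 and 2.83 CPM. The log2 fold change was -1.0 ± 0.60 SE (edgeR adjusted p = 0.75), and 0.05 without that library (adjusted p = 0.993). Wild-type-labelled library 1 also held the airway, fat and skeletal muscle markers, and in bulk tissue more cells of a type and more RNA per cell cannot be told apart. The part of those cells in its Asns level was not tested.

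Xbp1 (chromosome 11, 5470606 to 5483027, plus strand), which encodes a transcription factor for endoplasmic reticulum chaperones, measured 83.0, 69.5, 56.6, 53.2 and 58.2 CPM in the wild-type-labelled hearts. It measured 64.6, 76.1, 48.7, 42.0 and 56.7 CPM in the knockout-labelled hearts. The highest heart was in the wild-type-labelled group and the lowest 2 in the knockout-labelled group, with the rest interleaved. The log2 fold change was -0.15 ± 0.17 SE (edgeR adjusted p = 0.863), and 0.05 without wild-type-labelled library 1 and knockout-labelled library 4 (adjusted p = 0.952). Xbp1 shares 1527 bases with transcripts of Ccdc117 on the opposite strand, so the same limit on strand applies.

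Gdf15 (chromosome 8, 71082038 to 71091537, minus strand), a circulating stress hormone that lowers appetite through the hindbrain receptor GFRAL, had few counts in these hearts. The libraries held 41, 36, 22, 11 and 16 counts in the wild-type-labelled and 10, 16, 9, 17 and 17 in the knockout-labelled group. Scaled, these were 0.90, 0.92, 0.68, 0.53 and 0.41 CPM against 0.39, 0.56, 0.43, 0.55 and 0.51 CPM. Libraries 1, 2 and 3 labelled wild type lay above all 5 knockout-labelled hearts, while libraries 4 and 5 lay among them. Of the 3 high hearts, library 1 held the most airway and atrial markers, library 2 the next most atrial markers (382 CPM) and library 3 the next most airway markers (80.4 CPM, against at most 2.82 CPM in the remaining 8 hearts). Their part in the Gdf15 level was not tested. Means were 0.69 ± 0.22 and 0.49 ± 0.08 CPM (SD, n = 5 each), with a log2 fold change of -0.50 ± 0.28 SE (edgeR adjusted p = 0.748). The approximate 95% interval of the ratio ran from 0.455 to 1.105, which includes equal levels. The two-sided exact permutation test on log2(CPM + 1) gave p = 0.127, where 0.00794 is the smallest p the design allows. Without wild-type-labelled library 1 the log2 fold change was -0.38 (adjusted p = 0.921 by edgeR).

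Fgf21 (chromosome 7, 45263301 to 45266963, minus strand), a metabolic hormone made mainly by the liver and induced in stressed heart muscle, had 12 counts over the wild-type-labelled and 6 over the knockout-labelled libraries. Libraries 1 to 5 held 1, 9, 1, 0 and 1 counts in the wild-type-labelled and 6, 0, 0, 0 and 0 in the knockout-labelled group. Only wild-type-labelled library 2 and knockout-labelled library 1 exceeded 3 counts, the limit that a count of 0 allows, which corresponded to 0.066 to 0.144 CPM depending on the library. No ratio was formed, and levels below that limit were not detectable at this depth.

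**Figure D2:**
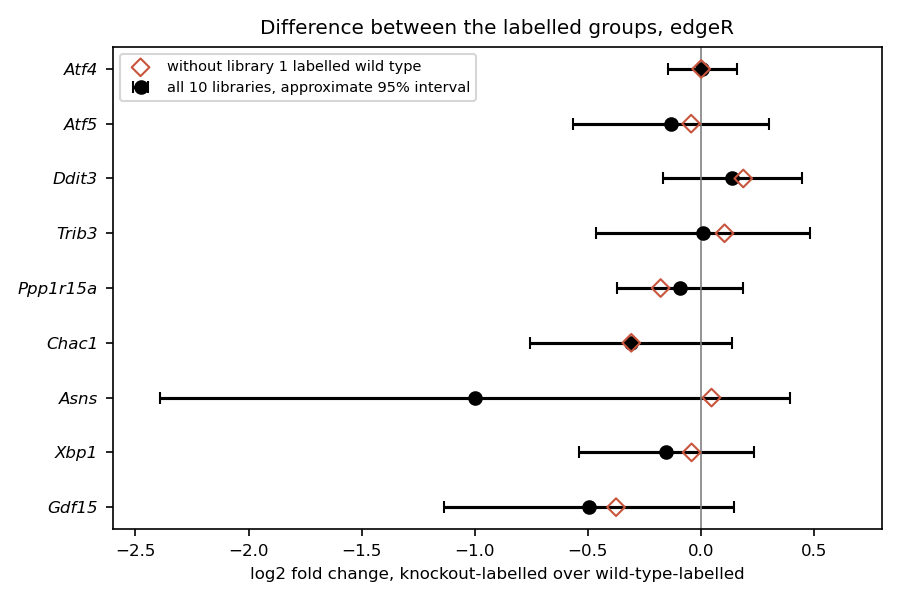
Log2 fold change of the 9 tested genes, knockout-labelled over wild-type-labelled hearts (horizontal axis), from edgeR with all 10 libraries (filled circles, approximate 95% intervals) and without wild-type-labelled library 1 (open diamonds). All intervals include 0, and the Asns value moves from -1.0 to 0.05.

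Although no gene was called between the groups, some of the genes rose and fell together from heart to heart. Across the 10 libraries, Atf5 and Xbp1 had a Pearson r of 0.96 (permutation p = 2e-05, adjusted p = 0.00072 over 36 pairs) and a Spearman rho of 0.95 (permutation p = 0.00012, adjusted p = 0.00432). The hearts highest in both were libraries 1 and 2 labelled wild type and knockout-labelled library 2, and the lowest in both were libraries 3 and 4 labelled knockout. The correlation was 0.92 without the 2 libraries farthest from the Atf5 median, and 0.96 after the group means were subtracted.

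Trib3 varied with both. Its r was 0.90 with Atf5 (permutation p = 0.00073, adjusted p = 0.0131) and 0.85 with Xbp1 (permutation p = 0.00199, adjusted p = 0.0239). Spearman rho was 0.87 with Atf5 (permutation p = 0.00212, adjusted p = 0.0254) and 0.88 with Xbp1 (permutation p = 0.00162, adjusted p = 0.0254). Without the 2 farthest libraries r was 0.90 with Atf5 and 0.87 with Xbp1, and with group means subtracted it was 0.93 and 0.90. Without wild-type-labelled library 1 and knockout-labelled library 4, r was 0.89 and 0.82, and neither passed the adjusted threshold (permutation p adjusted to 0.0731 and 0.108). Leaving out wild-type-labelled library 1 alone, the pair of Trib3 and Xbp1 did not pass either (r 0.82, permutation p adjusted to 0.062).

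Other pairs were looser. Asns ranked with Atf5 (Spearman rho 0.84, permutation p = 0.0039, adjusted p = 0.0351), while its Pearson r of 0.68 did not pass (permutation p = 0.0143, adjusted p = 0.103). That r was 0.68 without the 2 farthest libraries and 0.65 with group means subtracted. Atf4 itself had an r of 0.69 with Atf5, which did not pass (permutation p = 0.0275, adjusted p = 0.142, Spearman rho 0.53 with permutation p = 0.122, adjusted p = 0.46). It was 0.64 without the 2 farthest libraries, and 0.85 without wild-type-labelled library 1, where it passed (permutation p = 0.00386, adjusted p = 0.0463). Ddit3 and Chac1 went in opposite directions, with an r of -0.68 (permutation p = 0.0317, adjusted p = 0.143) and a rho of -0.48 (permutation p = 0.167, adjusted p = 0.46). That relation rested on library 4 of each group, since r was -0.14 without them. In all, 3 of the 36 pairs passed by Pearson r and 4 by Spearman rho. The share of all pairs of tested genes with such values was not computed, so these counts cannot be called particular to this pathway.

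**Figure D3:**
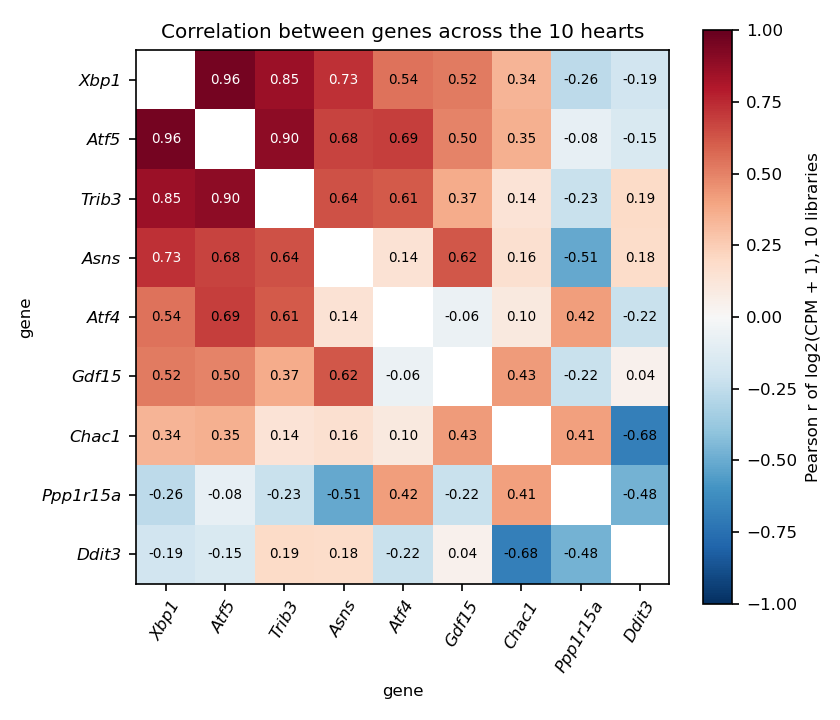
Pearson correlation of log2(CPM + 1) between each pair of the 9 tested genes across the 10 hearts (both axes list genes, colour gives r from -1 to 1). Xbp1, Atf5 and Trib3 form a block with r from 0.85 to 0.96, and Ddit3 against Chac1 is the lowest value, at -0.68.

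The same genes also moved with the summed level of ventricular cardiomyocyte markers, in the opposite direction. The marker sum (Myh6, Tnnt2, Tnni3, Actc1, Myl2, Myl3, Ryr2 and Pln) ranged from 18460 to 43070 CPM among wild-type-labelled hearts, while knockout-labelled hearts ran from 24600 to 55790 CPM. Against this sum, Atf5 had a Pearson r of -0.90 (permutation p = 0.00013, adjusted p = 0.00351 over 27 relations) and a rho of -0.93 (permutation p = 0.00028, adjusted p = 0.00756). Xbp1 had an r of -0.91 (permutation p = 0.00038, adjusted p = 0.00513) and a rho of -0.89 (permutation p = 0.00128, adjusted p = 0.0119). Hearts with a larger marker sum had less Atf5 and Xbp1. The single markers did not all follow the sum. Knockout-labelled library 4 was highest for Myh6 (24290 CPM of its sum), Tnni3, Actc1, Myl2, Myl3 and Ryr2. Its Tnnt2, at 7349 CPM, lay below wild-type-labelled library 4 at 9603 CPM, and its Pln, at 7027 CPM, below knockout-labelled library 3 at 7134 CPM.

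Trib3 and Asns did so too, with r of -0.80 for each (permutation p = 0.00445 and 0.00217, adjusted p = 0.03 and 0.0195). Their rho values were -0.89 and -0.81 (permutation p = 0.00132 and 0.0069, adjusted p = 0.0119 and 0.0466). The 2 farthest libraries were wild-type-labelled library 1 and knockout-labelled library 4, and without them r was -0.83 for Atf5, -0.75 for Xbp1, -0.76 for Trib3 and -0.86 for Asns. With group means subtracted, the 4 values were -0.90, -0.92, -0.815 and -0.80. Atf4, Ddit3, Chac1, Gdf15 and Ppp1r15a did not pass against the marker sum, with r of -0.42, 0.13, -0.33, -0.49 and 0.29 (permutation p adjusted to 0.445 or more). No gene passed against library total or the share of mitochondrially encoded counts, where the smallest permutation p adjusted over the 27 relations was 0.408 by Pearson r. Wild-type-labelled library 1 had the lowest mitochondrial share, and without it and knockout-labelled library 4 the r with this share was 0.77 for Atf4, 0.79 for Atf5, 0.78 for Trib3 and 0.83 for Xbp1, against 0.41, -0.18, -0.15 and -0.33 with all 10 libraries. These relations were examined after the values had been seen. An r below -0.9 with the marker sum was found in 0.623% of all tested genes and one below -0.8 in 3.61% of them. Counting both directions, as the permutation tests do, an absolute r over 0.9 was found in 2.35% of all tested genes. The part of cell composition in the shared variation of Atf5, Xbp1 and Trib3 was not tested.

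**Figure D4:**
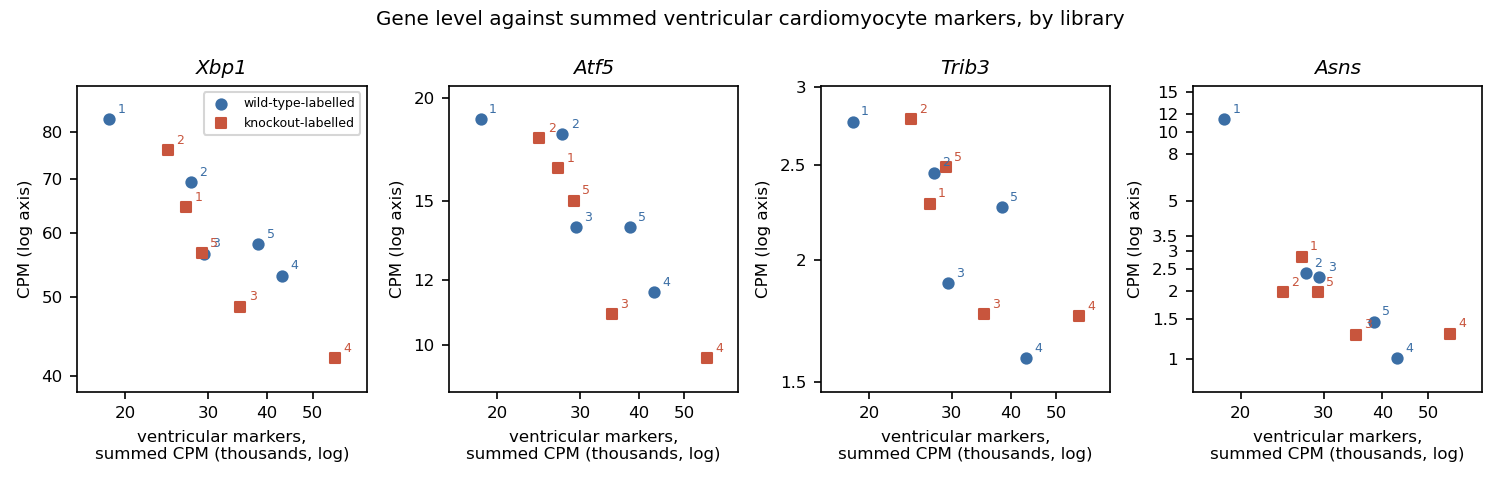
Level of Xbp1, Atf5, Trib3 and Asns (CPM, log axes) against the summed CPM of 8 ventricular cardiomyocyte markers (log axis) in each library, numbered within its group (blue circles wild-type-labelled, red squares knockout-labelled). Levels are mostly lower further right, from wild-type-labelled library 1 at the far left to knockout-labelled library 4 at the far right, although Trib3 and Asns are lowest in wild-type-labelled library 4.

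The genes with the highest correlations with Gdf15 and Atf4 were not other members. Among 12224 genes with a mean of at least 1 CPM, those most like Gdf15 across the 10 libraries were Foxc1, a forkhead transcription factor gene (Pearson r 0.94), Thbs4, a matrix glycoprotein gene (0.90), Pde12 (0.90), Mbtd1 (0.90) and Fchsd1 (0.90). Asns had 0.62 and Atf4 had -0.06. The value for Asns rested on wild-type-labelled library 1, without which it was 0.31 and Chac1, at 0.40, was the closest member. Those most like Atf4 were Abhd1 (0.96), Gimap5 (0.96), the RNA-binding protein gene Hnrnpc (0.93), Tomm34 (0.92) and Josd2 (0.92), with Atf5 at 0.69. By rank of r with all 10 libraries, Asns stood at 1197 for Gdf15 and Atf5 at 330 for Atf4. The named genes have the highest values of many computed over 10 libraries, a search that favours genes outside a short list. They are given as a description.

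No gene of the wider pathway was called. Of 134 other genes in 8 lists, 128 were tested and 0 were called by edgeR, against 0.353% of all tested genes. At an unadjusted p under 0.05 edgeR found 9 of the 128, against 6.86% of all tested genes. DESeq2 also called 0 (0.707% of all genes), with 9 at an unadjusted p under 0.05 (7.22% of all genes). Below 0 were 92 of the 128, with a median log2 fold change of -0.08, while 53.4% of all tested genes were below 0 with a median of -0.01. Without wild-type-labelled library 1, 80 of the 128 were below 0 and the median was -0.04. In that setting 8206 of the 16700 tested genes were below 0, with a median of 0.003.

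No gene of the machinery that starts and ends the response was called. The eIF2α kinases, eIF2, eIF2B and phosphatase genes (18 of 18 tested, 0 called) had a median log2 fold change of -0.02. The haem-sensing kinase gene Eif2ak1 had 32.6 ± 2.10 and 32.6 ± 1.45 CPM (SD, n = 5 each) in wild-type-labelled and knockout-labelled hearts. The endoplasmic reticulum kinase gene Eif2ak3 (PERK) had 11.2 ± 1.88 and 10.9 ± 1.27 CPM, and the amino acid sensor gene Eif2ak4 (GCN2) 10.005 ± 0.49 and 10.4 ± 0.85 CPM. The double-stranded RNA sensor gene Eif2ak2 (PKR) had 17.6 ± 5.58 and 15.3 ± 2.04 CPM, with 27.3 CPM in wild-type-labelled library 1. Its log2 fold change was -0.20, or 0.02 without that library (adjusted p = 0.841 and 0.991 by edgeR). Smallest in p were Eif2b2, Eif2s1 and Dnajc3, with log2 fold changes of -0.14, -0.09 and -0.15 (adjusted p = 0.75, 0.79 and 0.811 by edgeR), and Dnajc3 had -0.05 without wild-type-labelled library 1.

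Among the partner and feedback genes (14 of 15 tested, 0 called) the median was -0.11, and -0.07 without wild-type-labelled library 1. Sesn2, an ATF4 and p53 target that restrains growth signalling, had 5.36 ± 1.39 and 3.96 ± 0.48 CPM (adjusted p = 0.693 by edgeR). Nupr1, a stress-induced chromatin factor gene, had 5.64 ± 6.05 and 2.41 ± 0.68 CPM, with 16.4 CPM in wild-type-labelled library 1, and its log2 fold change went from -1.23 to -0.29 without that library. Trib2 had a log2 fold change of 0.25, or 0.15 without it.

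Amino acid transport and synthesis genes (23 of 24 tested, 0 called) had a median of -0.13, with 18 below 0, and -0.04 with 12 of 23 below 0 without wild-type-labelled library 1. Slc1a5, a glutamine transporter gene, stood at 72.3 CPM in that library and had a log2 fold change of -0.80, or -0.15 without it. The serine synthesis gene Psph had -0.31 and the arginine transporter gene Slc7a1 0.26 (adjusted p = 0.729 and 0.74 by edgeR), the latter 0.15 without that library.

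A list of 12 aminoacyl-tRNA synthetase genes, a class that ATF4 also induces, and the tRNA export receptor gene Xpot had a median of -0.05 (13 of 13 tested, 10 below 0, 0 called). Cars1 had 15.1 ± 1.97 and 12.2 ± 1.18 CPM, and Mars1 34.1 ± 1.24 and 30.1 ± 2.17 CPM (adjusted p = 0.616 and 0.642 by edgeR). Tars1 had a log2 fold change of -0.11.

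Endoplasmic reticulum unfolded protein response genes (28 of 29 tested, 0 called) had a median of -0.07, with 21 below 0. Without wild-type-labelled library 1 the median was -0.01 with 15 below 0. Its genes of smallest p were the chaperone genes Dnajb9 and Dnajb11 and the translocon gene Sec61b, with log2 fold changes of -0.16, -0.12 and -0.57 (adjusted p = 0.714, 0.724 and 0.722 by edgeR), where Sec61b had -0.25 without that library. Mitochondrial proteases and chaperones (10 of 10 tested, 0 called) had a median of 0.06, which turned to -0.03 without wild-type-labelled library 1, and Htra2, Hspe1 and Lonp1 had log2 fold changes of -0.17, 0.13 and -0.12, against -0.23, 0.07 and -0.215 without it.

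Receptors of the 2 hormones were mostly scarce. Gfral had 3 counts over the wild-type-labelled and 0 over the knockout-labelled libraries. Klb, the FGF21 co-receptor gene, had 4.83 CPM in wild-type-labelled library 1 and at most 0.404 CPM in any other heart. Of 7 receptor genes 4 were tested and 0 called: Ret, the signalling partner of GFRAL, had 3.48 ± 0.79 and 2.61 ± 0.37 CPM (adjusted p = 0.714 by edgeR), and Fgfr1 had 30.3 ± 8.18 and 27.2 ± 1.90 CPM. Fgfr1 and Fgfr2 had log2 fold changes of -0.16 and -1.74, and 0.03 and 0.16 without wild-type-labelled library 1.

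Gdf15 is also a p53 target, and p53 target genes (18 of 18 tested, 14 below 0, 0 called) had a median log2 fold change of -0.18, or -0.13 without wild-type-labelled library 1 and -0.06 without knockout-labelled library 4 as well. Zmat3, Phlda3 and Rrm2b had log2 fold changes of -0.31, -0.63 and 0.15 (adjusted p = 0.699, 0.714 and 0.715 by edgeR). Phlda3 stood at 18.0 CPM in wild-type-labelled library 1, and without it Zmat3 and Phlda3 had -0.19 and -0.26. Cdkn1a, the p21 gene, measured 13.7 CPM in knockout-labelled library 4 and at least 65.9 CPM in every other heart. The p53 targets did not move together in that library. Trp53inp1 was also lowest there, at 28.9 CPM, while Ccng1 and Plk2 were highest there, at 640 and 44.5 CPM. Gdf15 in that library, at 0.55 CPM from 17 counts, lay within the range of its group. The part of p53 in the Gdf15 level was not tested.

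**Figure D5:**
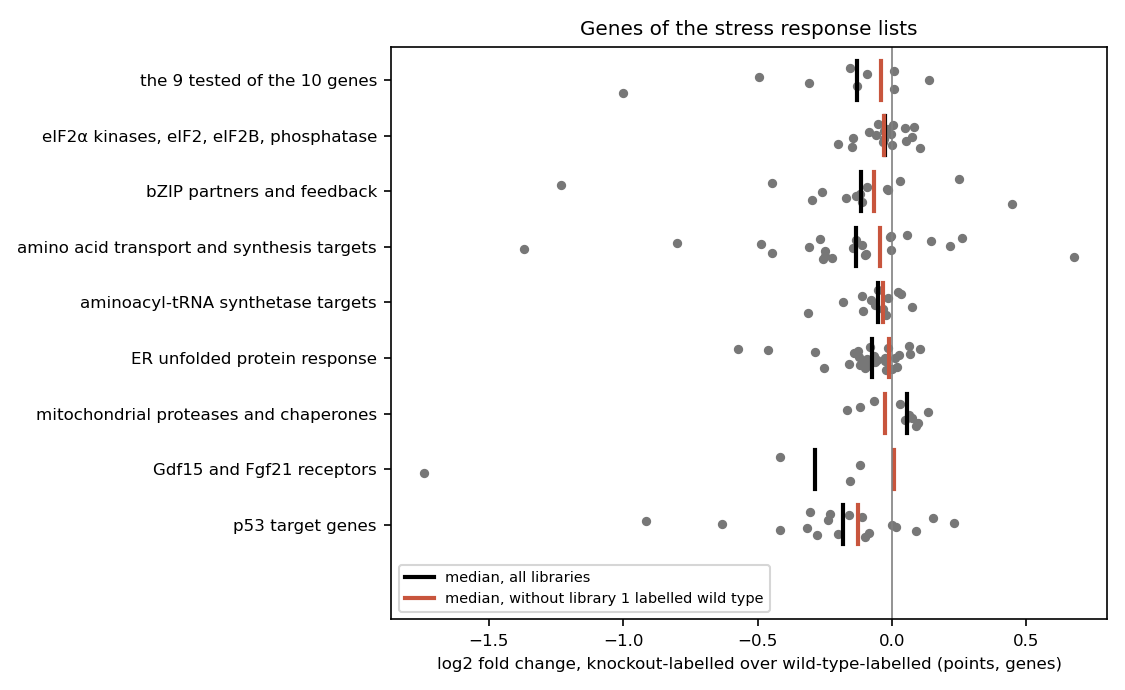
Log2 fold change (horizontal axis, knockout-labelled over wild-type-labelled) of each tested gene (grey points) in the 9 tested genes of the stress response and 8 further lists, with list medians from all 10 libraries (black) and without wild-type-labelled library 1 (red). The medians lie between -0.29 and 0.06 with all libraries and between -0.13 and 0.01 without that library.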

How the data were processed

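Bulk RNA sequencing of 10 mouse hearts was analysed. Per the labels' protocols the authors aligned reads to GRCm39 with STAR 2.5.2, while RSEM 1.3.0 comes from the submitters' processing notes. The table the authors deposited holds expected counts, 1 row a gene, all whole numbers, so rounding changed none. For the annotation release and the strand setting, nothing is given in the sources used here, and RSEM divides reads shared between genes by estimation. Symbols, positions and exon lengths came from GENCODE, which held 78168 of the 78298 identifiers.

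Groups followed the genotype label. Differences were tested by quasi-likelihood in edgeR 4.0.16 (R 4.3.3), with TMM factors, the default filter with a minimum count of 10, and Benjamini-Hochberg adjustment over 16700 genes at 0.05. An approximate standard error was formed as |log2 fold change| over root F, and approximate 95% intervals use Student's distribution with 8 degrees of freedom. CPM values use TMM factors on tested totals, and the log scale adds a pseudocount of 1. Correlations used 100000 permutations. Alternatives were 3 other scalings, 2 other filters, DESeq2 1.42.0, limma 3.58.1 voom with and without quality weights, leaving out mitochondrially encoded genes, each library in turn, and 2 libraries together. The fit was tested on simulated data. Libraries of a group differed beyond sampling noise in all 20 pairs (chi-square per degree of freedom at least 9.47). The labels do not state whether samples came from separate batches, so each p-value reflects only how much these hearts varied, which may be technical in part. Depth limits precision for the scarcest genes, and floors cover counting error only. Transcripts shared with other genes were found by blastn 2.17.0, keeping matches of 200 bases or more with 95% identity.

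The members and lists were chosen with earlier results of these data known. The text names the 10 genes, Mapk13, list genes called or among the 3 of smallest p, and the 5 genes most like Gdf15 and Atf4. Eif2ak1, Eif2ak2, Eif2ak3, Eif2ak4, Gfral, Klb, Cdkn1a, Trp53inp1, Ccng1 and Plk2 were named after their values were seen.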

Additional observations from a re-analysis of the deposited data

Results flagged for a closer look

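Of 20 sets of 5 libraries (10 genes in 2 groups), 5 held a library whose gap to the next exceeded Dixon's critical value of 0.71 of the range. The rate of about 1 in 20 under chance holds for independent, normally distributed sets. The same libraries recur across these genes and Fgf21 was near 0 counts, so the 5 cannot be set against that rate. Wild-type-labelled library 1 was highest for Asns, at 11.4 CPM, and lowest for Ppp1r15a, at 27.1 CPM. Knockout-labelled library 4 was highest for Ddit3, at 12.3 CPM. Wild-type-labelled library 2 and knockout-labelled library 1 were highest for Fgf21, at 0.23 and 0.236 CPM, which were 9 and 6 counts.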

How the results depend on the processing

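No member and no gene of the 8 further lists was called under any of the 20 alternatives. Chac1, Gdf15 and Ppp1r15a stayed below 0 and Ddit3 above 0 in every alternative that tested them, and the only unadjusted p under 0.05 among the 9 members was that of Gdf15 without wild-type-labelled library 5 (log2 fold change -0.64, adjusted p = 0.562 by edgeR). Some signs turned, none of a called value, and Asns, the furthest from 0 with all libraries, was among them. With libraries scaled by totals alone, Atf4 had -0.094 and Trib3 -0.114, and with limma voom Trib3 had -0.022. Leaving out each library in turn gave -0.025 to 0.041 for Atf4, -0.088 to 0.104 for Trib3 and -1.23 to 0.046 for Asns. Without wild-type-labelled library 1 and knockout-labelled library 4, Atf5, Asns and Xbp1 had 0.064, 0.153 and 0.052, and 1 of 36 pairs, Atf5 with Xbp1, stayed correlated, where 2 fewer libraries entered. Over all genes DESeq2 called 118 and voom with quality weights 91, against 59; the cause was not tested. Gdf15 dropped out under the stricter filter (1 CPM in 5 libraries). No paired analysis was possible because the titles of the knockout-labelled libraries carry no replicate numbers shared with the other group. Depth limits Gdf15 and Fgf21, with at most 41 and 9 counts in a library.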
